A study of Gallus gallus with 24 samples.

Results

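The upper follicle sheath of the adult chicken sickle feather was compared between males and females in 4 of the 24 libraries of the series. Males 1 and 2 were birds 53 and 68, and females 1 and 2 were birds 52 and 120. These 4 libraries were chosen by their labels (sex and tissue), with no measured value. The other 20 libraries came from the lower follicle sheath, the pulp, the collar epithelium, the papilla ectoderm and the dermal papilla of the same 4 birds, 1 library per tissue and bird. The labels name no treatment, breed, genotype or age beyond adult. With 2 birds per sex, a difference between the sexes cannot be told apart from a difference between these particular birds.

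The follicle sheath is the outer wall of the feather follicle, which surrounds the growing feather. Sickle feathers are the long curved tail feathers of the rooster, and feather form in chickens is known to respond to sex hormones. Any difference in feather form between these hens and roosters cannot be told apart from sex here. In birds the male carries a pair of Z chromosomes and the female a Z and a W, and the second Z copy of the male is only partly compensated in expression. The deposited files give Ensembl gene identifiers without names or chromosomes. The genes below are therefore described by identifier, level and pattern, no role or chromosome is assigned to any of them, and the tissue label could not be checked against marker genes. In whole tissue, fewer cells of a type and less RNA per cell cannot be told apart.

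The upper sheath libraries held 21581769 (male 1), 27247160 (male 2), 20864990 (female 1) and 24809178 (female 2) counts, within the range of 12514383 to 31404619 over all 24. One count was worth 0.0363 to 0.0469 CPM, the unit of level used throughout (a gene's counts scaled to library size with TMM factors). By Spearman correlation across genes, each library was closest to the other of its own sex: rho was 0.982 between the males, 0.987 between the females and 0.971 to 0.975 between the sexes. Among 11968 genes with a mean of at least 1 CPM, 802 differed by over 2-fold between the males and 477 between the females. Between a male and a female the number was 972 to 1158. The 2 males were thus less alike than the 2 females, and a male and a female differed in more genes than either pair of one sex. The closest library of another tissue was the lower sheath of female 1 for all 4, with rho of 0.931 to 0.949.

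Genes restricted to 1 of the other tissues were read in the 4 upper sheath libraries as a percent of their level in that tissue. The 30 genes restricted to the lower sheath (at 10 CPM or more there, over 10 times every library of the other 4 tissues, the upper sheath not used) stood at a median of 0.131% to 0.269% of their lower sheath level. The 4 pulp-restricted genes stood at 1.12% and 1.31% in males and 1.84% and 2.5% in females. The 10 collar-restricted genes stood at 1.21% in male 1, 0.252% in male 2, 0.172% in female 1 and 0.156% in female 2, and 1 of them was among the male-higher genes below. Summed, these collar genes stood at 69.8 and 41.4 CPM in males and 13.3 and 11.4 CPM in females. The pulp genes summed to 38.2 and 66.8 CPM in males and 185 and 110 CPM in females. For the lower sheath genes the sexes overlapped, at 43.7 and 26.2 CPM in males and 27.1 and 37.6 CPM in females. Under a stricter rule of 20 times, 2 collar genes remained, and 1 of them was a male-higher call. Their median stood at 43.9% and 52.2% in males and 3.75% and 4.67% in females, but a median of 2 genes can follow 1 of them. Together they summed to 18.8 and 22.3 CPM in males and 2.65 and 2.74 CPM in females, against 232 CPM in the collar. The called gene made up 17.8 and 21.2 CPM of this in males and 1.41 and 1.81 CPM in females. The collar value thus depends on that rule, and under the stricter rule it follows mainly 1 gene already called between the sexes. The single papilla ectoderm gene stood at 1.05% to 1.42% in 3 libraries and at 10.9% in female 2, and no gene met the rule for the dermal papilla. The part of these levels in the results was not tested.

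Between the sexes, 83 of 14077 genes differed in the upper sheath (edgeR's quasi-likelihood test, adjusted p below 0.05), which is 0.59% of the genes tested. Of these, 42 were higher in males (0.298%) and 41 in females (0.291%). In all 83, both libraries of one sex lay above both of the other. That alone is common: both males lay above both females in 21.2% of all genes tested, and both females above both males in 22%. The male-higher genes had a median log2 difference of 1.24 (0.81 to 6.30): 10 exceeded 4-fold, 21 lay between 2-fold and 4-fold and 11 below 2-fold. Of the 41 female-higher genes 40 exceeded 4-fold. Many of them had few or no counts in males, among them the 34 described below as female-limited, so their size is uncertain. For female-limited genes at 0 in both males a bound is used below. In the higher sex, the male-higher genes had a median of 126 CPM and the female-higher genes 13.4 CPM. Together the 42 male-higher genes summed to 9315 and 11070 CPM in the males and to 2965 and 3119 CPM in the females. The 41 female-higher genes summed to 1293 and 1305 CPM in the females and to 51.4 and 72.3 CPM in the males.

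**Figure D1:**
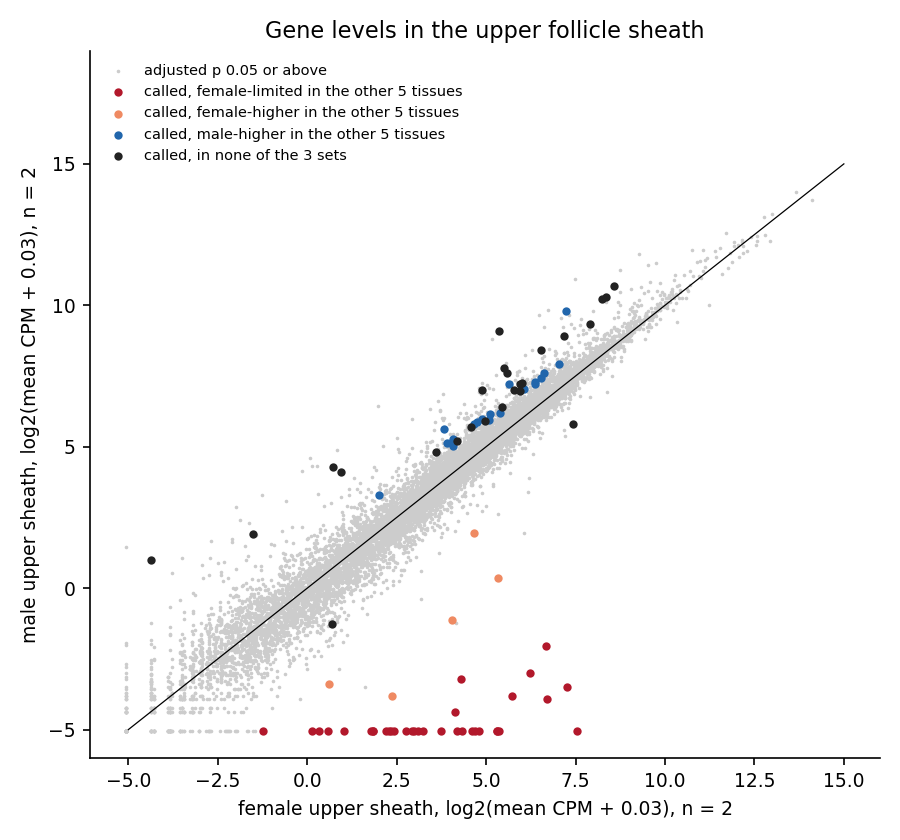
Mean level of each gene tested in the upper sheath, log2(CPM + 0.03), in females (x axis) and males (y axis), 2 libraries each; coloured points are the 83 called genes by set and the line marks equal levels. The female-limited genes lie at or near the bottom edge. The male-higher genes lie above the line, 10 of the 42 by over 4-fold, and mostly at high levels.

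To see how much of this difference was shared across the follicle, 3 gene sets were defined in the other 5 tissues alone, without the upper sheath libraries but in the same 4 birds. Female-limited genes (35) had their lowest CPM in 10 female libraries above 5 times the highest in 10 male libraries. Male-higher genes (132) had both males above both females in each of the 5 tissues. Female-higher genes (64) had the reverse and were not female-limited. Of the 83 upper sheath calls, 34 were female-limited, 5 female-higher and 19 male-higher elsewhere, and 25 (23 male-higher, 2 female-higher) belonged to no set. Over all genes tested, the median log2 difference was 0.00, with quartiles of -0.25 and 0.25.

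The female-limited genes kept their pattern in the upper sheath. All 35 had both females above both males, against 22% of all genes tested. Of the 35, 34 were called female-higher, against 0.291% of all genes. Their summed level was 1056 CPM in female 1 and 1015 CPM in female 2, within the range of the female libraries of the other tissues (931 to 2272 CPM). It was 0.469 CPM in male 1 and 0.616 CPM in male 2, which is 10 and 17 counts over all 35 genes. In 28 of them neither male library had a count, in 4 the males had 1 to 3 counts, and in 3 more than that. For a bound, genes at 0 in the males were set to 3 counts over both, and the others kept their counts. The median log2 difference over the 35 was then -7.27, the smallest -2.18 and the largest -11.55. For the genes that kept their counts the value is an estimate and not a bound. The gene not called was the least abundant, with a mean of 0.285 CPM in females.

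ENSGALG00000013312.4 was the female-limited gene whose highest p, over the fit with all libraries and the 4 fits without 1 upper sheath library, was smallest. It stood at 67.5 and 83.4 CPM in the females and at 0.0469 and 0.145 CPM in the males, which is 1 and 4 counts. The sexes did not overlap. The ratio of counts, female over male, was 743 (95% interval 318 to 2290, counting error only), with 5 counts over both males. The log2 difference, male minus female, was -9.47 ± 0.46 (SE; edgeR, adjusted p = 9.29e-09). In the other tissues its mean level was 71.5 to 108 CPM in females and 0.0451 to 0.245 CPM in males. The log2 difference in the upper sheath minus the mean of the other 5 was 0.18 ± 0.53, a slightly smaller female excess that did not pass the test (edgeR, adjusted p = 1).

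The 132 male-higher genes mostly differed by less than 2-fold gene by gene, while 24 exceeded 1 on the log2 scale. In the upper sheath, 125 of them (94.7%) had both males above both females, against 21.2% of all genes tested. Of the rest, 6 overlapped and 1 had both females above. Their median log2 difference was 0.73, with quartiles of 0.51 and 0.94: 31 genes lay under 0.5, 77 between 0.5 and 1, 17 between 1 and 2, and 7 over 2. At this size few passed the test. Of the 132, 19 were called male-higher, against 0.298% of all genes tested. An unadjusted p under 0.05 (edgeR) was found for 95 (72%), against 7.49% of all genes tested. The spread behind these p-values came from all 24 libraries, and the set was chosen for no overlap of the sexes in 20 of them. A like limit holds for the calls in the other sets. The 19 calls and the 72% are thus not independent of how the 132 genes were chosen. The same genes had medians of 0.74 in the lower sheath, 0.89 in the papilla ectoderm, 0.77 in the pulp, 0.71 in the dermal papilla and 0.60 in the collar, where the direction was fixed by the choice of genes. Their summed level was 13250 and 13380 CPM in males and 5332 and 5868 CPM in females. A single gene made up 2042 and 1831 CPM of the male sums and 154 and 205 CPM of the female sums. Without it, the other 131 summed to 11210 and 11550 CPM in males and to 5179 and 5663 CPM in females.

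ENSGALG00000014661.4 is a member of this set. It stood at 61.9 and 56.3 CPM in the males and at 27.4 and 26.1 CPM in the females of the upper sheath. Both sexes were tight and did not overlap. The log2 difference was 1.14 ± 0.15 (SE; edgeR, adjusted p = 0.000737). The difference was of like size in every other tissue (0.98 to 1.18), and the upper sheath stood 0.08 ± 0.16 above their mean (adjusted p = 1).

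The 64 female-higher genes were less uniform. In the upper sheath 48 (75%) had both females above both males, against 22% of all genes tested, and 1 had both males above. Of the 64, 5 were called, against 0.291% of all genes. An unadjusted p under 0.05 (edgeR) was found for 22 (34.4%), against 7.49% of all genes, with the same limit from the choice of genes. The median log2 difference was -0.82, with quartiles of -1.36 and -0.37 and a range of -6.79 to 0.34. Their summed level was 939 and 1044 CPM in females and 592 and 687 CPM in males.

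**Figure D2:**
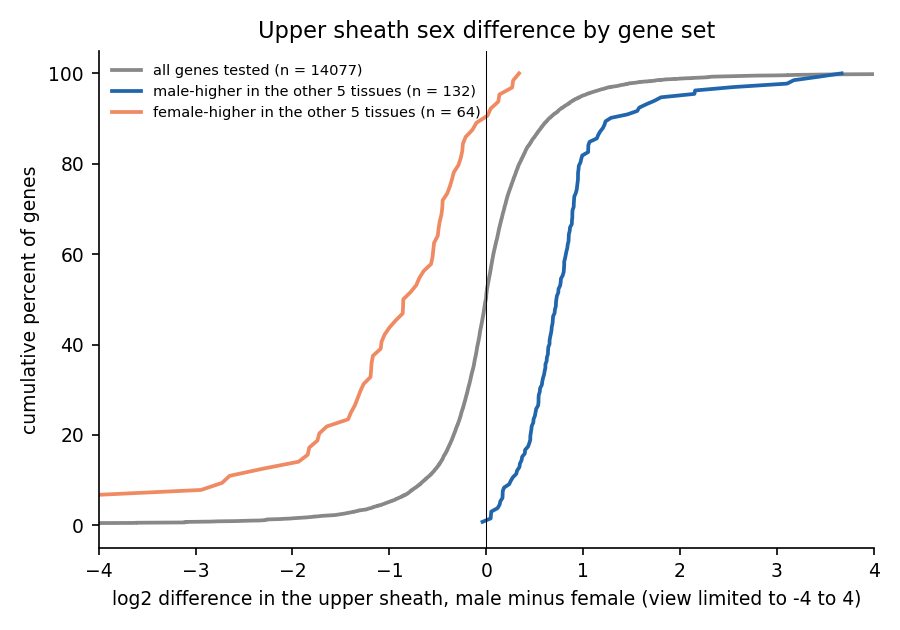
Cumulative percent of genes by log2 difference in the upper sheath, male minus female (view limited to -4 to 4), for all 14077 genes tested and for the 132 male-higher and 64 female-higher genes of the other 5 tissues. All genes centre on 0.00, the male-higher set on 0.73 and the female-higher set on -0.82.

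ENSGALG00000026514.1 belongs to the female-higher set and was named outside the female-limited genes. It stood at 7.0 CPM (164 counts) in female 1 and 3.22 CPM (87 counts) in female 2. Each male library had 1 count (0.0469 and 0.0362 CPM). The ratio of counts was 122 (95% interval 33.3 to 1010, counting error only; edgeR, adjusted p = 0.00254). The adjusted p was 0.0535 without male 1 and 0.111 without male 2, while the log2 difference was -6.95 and -6.61 there against -6.79 with all libraries. The female level was highest in the upper sheath (5.11 ± 2.67 CPM, SD, n = 2) and lower sheath (3.21 ± 0.97), followed by the papilla ectoderm (2.86 ± 1.90), pulp (1.63 ± 0.65), dermal papilla (1.21 ± 0.59) and collar (0.227 ± 0.017). The upper sheath, lower sheath and papilla ectoderm did not differ beyond the spread of the females. In males it stayed at 0.0416 to 0.258 CPM on average in all 6 tissues.

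The 23 male-higher calls outside the set had a larger median difference and a higher median level in males than the 19 inside it. This split depends on the rule for the set: asking for 4 of 5 tissues put 30 of the 42 male-higher calls inside. As split here, the 23 had a median log2 difference of 1.87 (0.95 to 6.30) against 1.05 (0.81 to 2.55). Their standard errors were mostly wider, and a gene with a wider one needs a larger difference to be called. The order of size is thus a description. The median male level of the 23 was 130 against 71.1 CPM, and the male excess enters that level. The most abundant, at a mean of 1660 CPM in males, was among them. Their sum was 6868 CPM in male 1, 8256 in male 2, 1966 in female 1 and 2096 in female 2. Most were genes whose highest level in the follicle was in the upper sheath: 16 of 23 (69.6%), against 14% of all genes tested. The male excess enters that count. In females alone the upper sheath was highest for 11 of 23 (47.8%), against 13.7% of all genes. For the 19 calls inside the set it was highest in females for 1, while the collar was highest for 9 and the dermal papilla for 8. Over all 14077 genes in females, the collar was highest for 4591 and the dermal papilla for 2333.

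In the other tissues these 23 genes differed less between the sexes. Their median log2 differences were 0.76 in the lower sheath, 0.68 in the dermal papilla, 0.49 in the papilla ectoderm, 0.49 in the collar and 0.42 in the pulp. The upper sheath difference was above that of every other tissue in 20 of 23. The genes had been called for a large upper sheath difference, so this order is a description. By their lower sheath values, and chosen after these were seen, they fell into 2 groups. In 10, the male excess was also over 1 on the log2 scale in the lower sheath, with medians of 2.0 (upper sheath), 1.23 (lower sheath), 1.19 (dermal papilla), 1.18 (papilla ectoderm), 0.63 (collar) and 0.42 (pulp). These 10 summed to 5651 and 6665 CPM in male and 1541 and 1693 CPM in female upper sheaths. Among them, 3 genes stood at 1832 and 1486, 1101 and 1312, and 960 and 1571 CPM in the males. The male sums of the 10, and of the 23, follow these in large part. In the lower sheath the 10 summed to 3630 and 3141 CPM in males and 1064 and 1113 CPM in females. That gap is fixed by the choice of the 10 genes. In the remaining 13, the median was 1.24 in the upper sheath and -0.06 to 0.36 in the other 5 tissues. Single genes among the 13 varied widely there, from -4.26 in the dermal papilla to 1.59 in the papilla ectoderm. The 13 summed to 1216 and 1592 CPM in male and 425 and 403 CPM in female upper sheaths. In the lower sheath they summed to 513 and 458 CPM in males and 381 and 321 CPM in females.

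**Figure D3:**
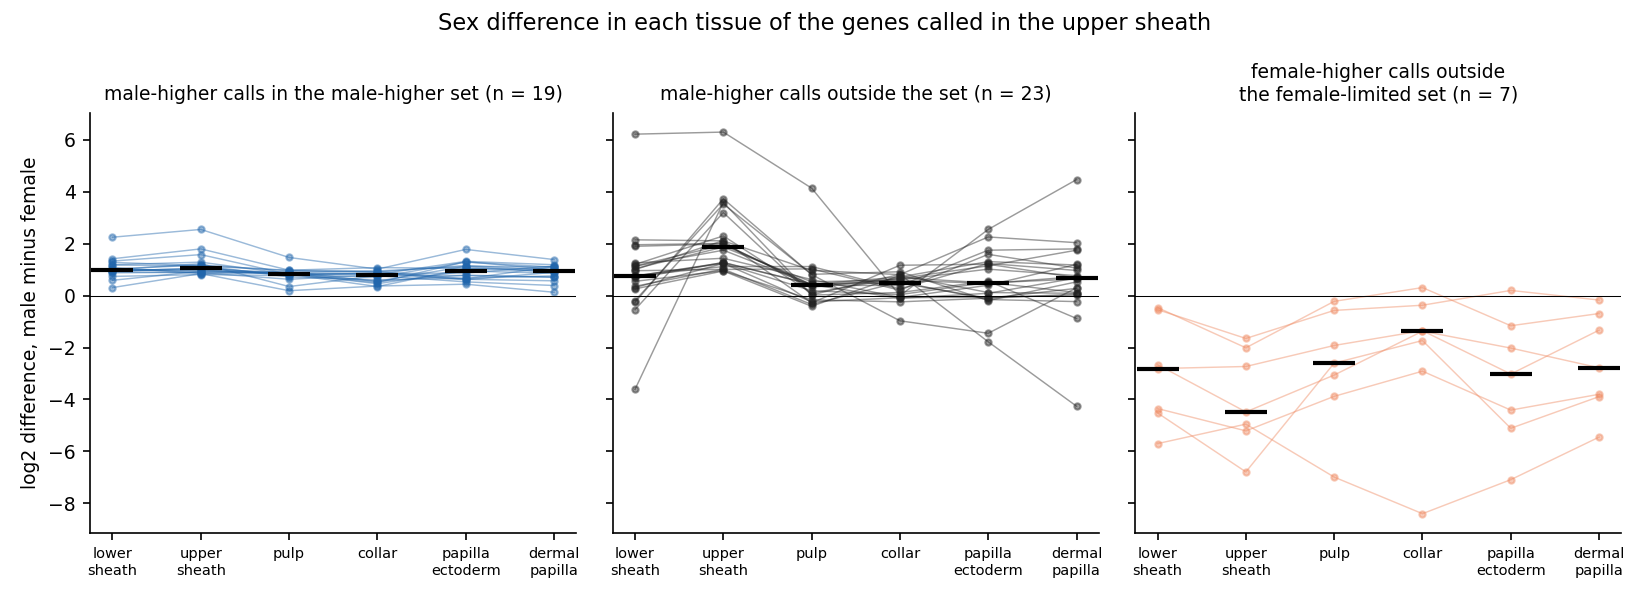
Log2 difference between the sexes, male minus female, in the 6 tissues (x axis) for the genes called in the upper sheath; each line is a gene and black bars are medians. The 19 genes of the male-higher set have similar medians across tissues (0.81 to 1.05) though single genes vary, whereas the 23 others peak in the upper sheath, where they were called (median 1.87), and the 7 female-higher genes outside the female-limited set spread widely.

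ENSGALG00000006917.4 was the male-higher gene with the smallest worst p. It stood at 185 CPM in male 1 and 260 CPM in male 2, against 42.6 CPM in female 1 and 47.6 CPM in female 2. The males differed more from each other than the females did, and the sexes did not overlap. The log2 difference was 2.30 ± 0.30 (SE; edgeR, adjusted p = 0.000533), a 4.93-fold excess. In males the upper sheath (222 ± 52.7 CPM, SD, n = 2) was followed by the lower sheath (118 ± 35.4), pulp (71.8 ± 15.4), papilla ectoderm (62.3 ± 6.87), dermal papilla (55.5 ± 22.2) and collar (46.1 ± 5.97). From the pulp to the collar, neighbours in that order did not differ beyond their spread. In females the order was another, with 66.7 ± 5.82 CPM in the pulp, 51.4 ± 4.05 in the lower sheath and 45.1 ± 3.50 in the upper sheath. The upper sheath difference exceeded the mean of the other 5 by 1.68 ± 0.31 on the log2 scale, which did not pass over all genes (unadjusted p = 7.96e-05, adjusted p = 0.432, edgeR).

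**Figure D4:**
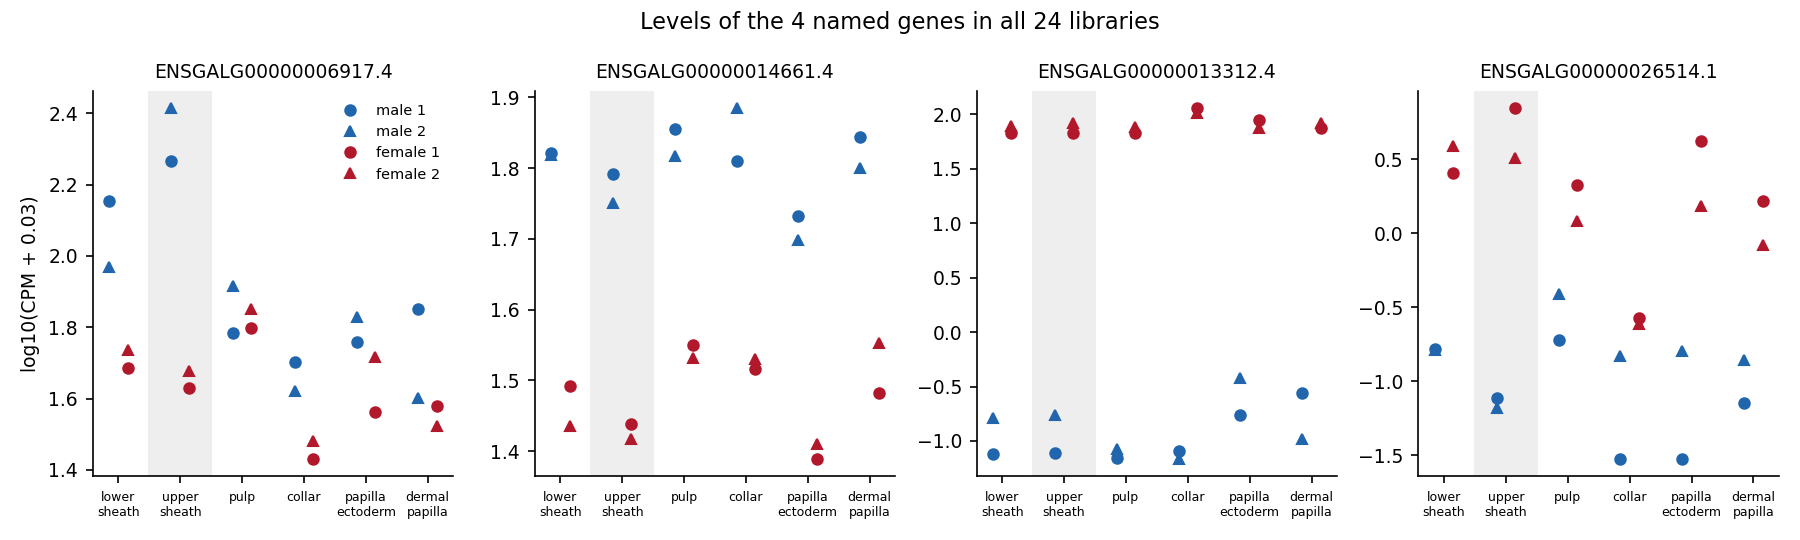
Level of the 4 named genes in each of the 24 libraries, log10(CPM + 0.03), by tissue (x axis), sex (colour) and bird (symbol); the upper sheath is shaded and each panel has its own scale. ENSGALG00000006917.4 separates the sexes most in the upper sheath, ENSGALG00000014661.4 by a like amount everywhere, and the other 2 are near the bottom in males throughout.

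The male-higher calls shared more genes with those of the lower sheath, the other part of the same wall, than with those of any other tissue. The tissues share birds but no library. The spread behind each list was estimated in the same fit of all 24 libraries, so the overlaps are not independent of that fit. Of the 42 male-higher genes, 17 were also male-higher calls in the lower sheath, which is 40.5% of the upper sheath list and 65.4% of the 26 in the lower sheath (0.185% of genes tested). The papilla ectoderm shared 15 of its 112 male-higher calls (0.796% of genes tested), and the pulp 12 of 68 (0.483%). The dermal papilla shared 11 of 19 (0.135%) and the collar 4 of 24 (0.17%). In the female direction 34 to 37 of the 41 were called in each other tissue, of which 1 to 3 per tissue were not female-limited. The female-higher calls there made up 0.298% of genes in the lower sheath, 0.469% in the pulp, 0.263% in the dermal papilla, 0.76% in the collar and 1.24% in the papilla ectoderm. Of the 42 male-higher genes, 19 were called in no other tissue, 16 of them outside the male-higher set. Of the 41 female-higher genes the number was 3.

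A call in the upper sheath and not elsewhere does not show a difference between tissues, so that difference was tested itself. Against the mean sex difference of the other 5 tissues, edgeR called 0 of 14077 genes (0%; lowest adjusted p = 0.176), with 461 at an unadjusted p under 0.05, and DESeq2 called 14. Against the lower sheath alone edgeR called 0 genes (0%; lowest adjusted p = 1), with 339 at an unadjusted p under 0.05, and DESeq2 called 23. Both counts of unadjusted p, 461 and 339, are below the number that would fall under 0.05 if no gene differed. The p-values of these comparisons thus ran high, and 0 calls do not show that the sex difference was alike across tissues. For the sex difference within the upper sheath, 1054 of 14077 genes had an unadjusted p under 0.05. Since every bird gave every tissue, the first comparison was also made with the bird as a fixed term. There 607 genes had an unadjusted p under 0.05 (edgeR), also below the number that would if no gene differed. In that fit 2 genes passed. Without 1 upper sheath library that count was 3 (male 1), 0 (male 2), 0 (female 1) or 1 (female 2). For both, the sexes did not overlap in the upper sheath.

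ENSGALG00000017183.4 stood at 421 and 673 CPM in the males and 49.4 and 32.9 CPM in the females of the upper sheath. In the lower sheath it stood at 95.7 and 30.1 CPM in males and 90.6 and 59.6 CPM in females, with the sexes overlapping. Elsewhere it was at 19.5 CPM or less. Its upper sheath difference exceeded the mean of the others by 4.22 ± 0.55 on the log2 scale with the bird in the fit (edgeR, adjusted p = 0.0244) and by 4.05 ± 0.64 without (adjusted p = 0.176). ENSGALG00000028772.1 went the other way. Its upper sheath levels were 99.8 and 119 CPM in males and 221 and 255 CPM in females. In the other 5 tissues it stood between 8.83 and 39.2 CPM, with log2 differences of 0.42 to 0.84 towards males. The upper sheath difference minus their mean was -1.70 ± 0.21 with the bird in the fit (edgeR, adjusted p = 0.0244; without the bird, 0.822). Its sex difference within the upper sheath, -1.12 ± 0.38, was not called (adjusted p = 0.358).

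How firmly the calls stand differed by group. Left out one at a time, the 4 upper sheath libraries left 29 of the 34 female-limited calls in place every time, but 3 of the 42 male-higher calls and 0 of the 7 other female-higher calls. Without male 1, 22 genes were male-higher. Without male 2 there were 5, without female 1 also 5, and without female 2 there were 3. Of the 42 male-higher genes, DESeq2 kept 42, limma with the bird as a random effect 41, and edgeR on the 4 upper sheath libraries alone 15. The males also contributed unequally. Male 2 lay above male 1 in 35 of the 42 genes (83.3%), with a median log2 ratio of 0.21, against 46.8% of all genes at 1 CPM or more. In the 132-gene male-higher set that share was 50.8%. Beyond the calls, 375 genes higher in males and 262 higher in females differed by over 2-fold without overlap at a mean of at least 1 CPM, and did not pass the test.

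**Figure D5:**
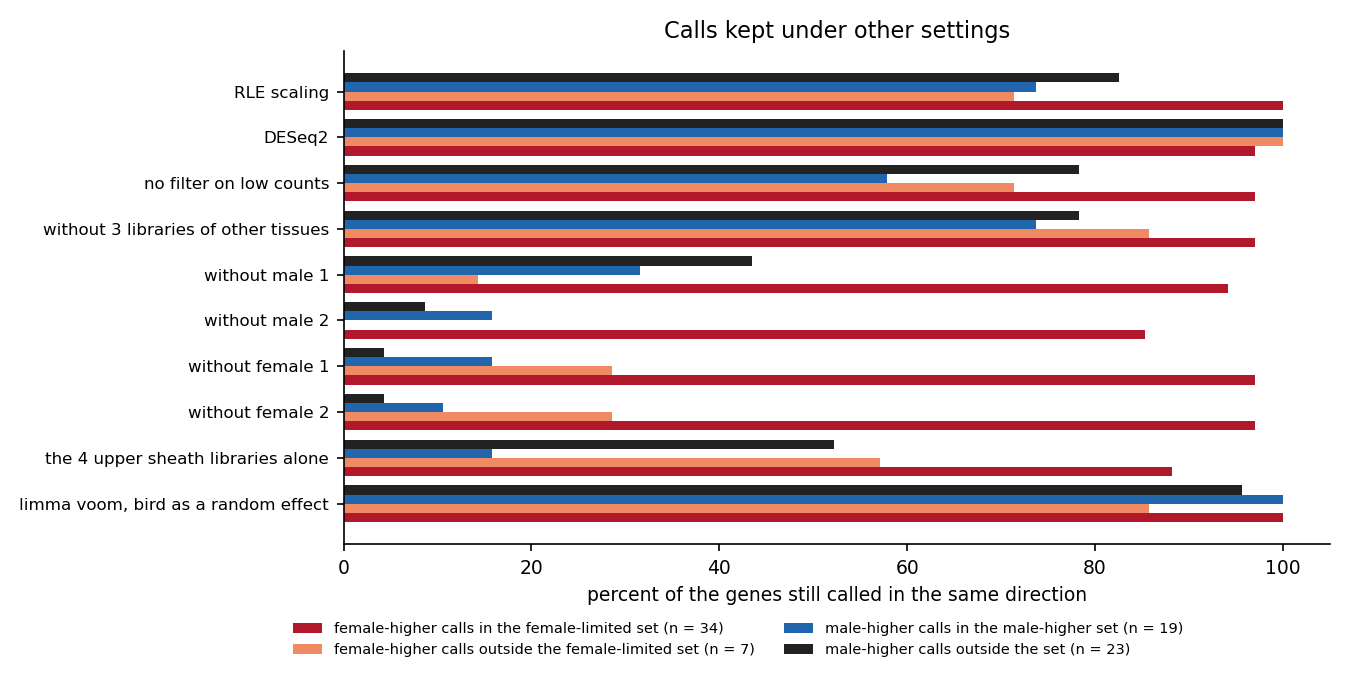
Percent of the called genes (x axis) that stayed called in the same direction under each other setting (y axis), by group. The 34 female-limited calls stay above 80% in every setting, whereas both male-higher groups fall below 20% without male 2, female 1 or female 2.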

How the data were processed

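Polyadenylated RNA of 24 libraries (TRIzol extraction, Illumina TruSeq RNA kit, version 2, per the labels' protocols) was deposited by the authors as raw counts per gene, 17108 versioned Ensembl identifiers in every file. STAR (2.4.1d), edgeR and HTSeq (0.6.0), and the galGal4 build, are named in the submitters' processing notes. For the annotation release, strand setting and read filtering no source used here gives a value, so counts shared by overlapping, antisense or near-identical genes are uncertain. The files do not pair identifiers with names, and 0 of the 17108 matched the RefSeq table (25635 genes, GRCg7b), which holds no Ensembl identifiers. Planned gene lists and cell type markers were therefore not used here.

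The counts as deposited entered the quasi-likelihood test of the R package edgeR (4.0.16, under R 4.3.3; TMM scaling, filterByExpr with a minimum count of 10). The filter kept 14077 genes and left out 0.00878% of all counts. One mean was fitted for each of the 12 groups of sex and tissue over 24 libraries, with 12 residual degrees of freedom. Benjamini-Hochberg adjustment ran over all genes tested. Tissues of the same bird enter that fit as independent samples. Standard errors come from the F statistic. Libraries of one bird correlated by 0.132 (limma consensus), and the pairing of tissues by bird comes from the labels. The gene sets, lists and comparisons were chosen with earlier results of these data known. The 4 genes named for the sex difference are those called, with no overlap of the sexes and 1 CPM or more on average in the higher sex, whose highest p over the fit and the 4 fits without 1 upper sheath library was smallest: 2 male-higher, 1 female-limited and 1 other female-higher gene. A further 2 genes were named because they passed the comparison between tissues with the bird as a fixed term, and were chosen after their values were seen. Counting intervals are exact binomial and cover counting error only. Alternatives were RLE scaling, DESeq2 1.42.0, limma 3.58.1 (voom), no filter, other library subsets and the bird as a fixed term. The procedure was tested on simulated data with independent libraries and no effect of the bird, so the sharing of birds across tissues was not covered.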

Additional observations from a re-analysis of the deposited data

Results flagged for a closer look

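For 2 genes the difference between the sexes in the upper sheath departed from that in the other 5 tissues by a test of that difference with the bird as a fixed term (edgeR). ENSGALG00000017183.4 exceeded them by 4.22 on the log2 scale (adjusted p = 0.0244). Without male 1 the difference was 4.94 (adjusted p = 0.00224), without male 2 it was 3.23 (0.149), without female 1 4.29 (0.492) and without female 2 4.16 (0.454). ENSGALG00000028772.1 departed by -1.70 (adjusted p = 0.0244). Leaving out male 1 gave -1.96 (adjusted p = 0.0216), male 2 -1.45 (0.155), female 1 -1.60 (0.358) and female 2 -1.78 (0.12). Of these 4 fits, both genes passed in the one without male 1 and neither in the other 3. Neither passed without the bird in the fit (0.176 and 0.822).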

How the results depend on the processing

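DESeq2 called 188 male-higher and 77 female-higher genes, the 4 upper sheath libraries alone 71 male-higher and limma with the bird as a random effect 80. Leaving out 1 upper sheath library gave 3 to 22 male-higher and 29 to 37 female-higher genes. Against the other 5 tissues DESeq2 called 14 genes, the fits without 1 library 0 to 1, the replicate block (bird as a fixed term) 2, and the block without 1 library, added after seeing the data, 0 to 3. Against the lower sheath DESeq2 called 23, the fit without 3 libraries of other tissues 2, fits without 1 library 0 to 2, and the block changed no call. Asking for 4 of 5 tissues gave 30 called genes of the male-higher set, and RLE scaling 3 of the female-higher set. For genes restricted to another tissue, 20 times put the highest median at 0.152% (lower sheath) and 52.2% (collar, 2 genes), RLE scaling put the pulp at 1.79%, and no pulp gene passed 20 times. The upper sheath was the highest tissue for 12 of the 42 male-higher genes in females alone, against 20, and for 2 of the 41 female-higher genes in males alone, against 5. The causes were not tested. The other 45 values of these counts and levels stayed within 1.5 times or within the spread. Of the 40 values for the 4 named genes, 38 kept their call and 2, both of ENSGALG00000026514.1, lost it (adjusted p 0.0535 and 0.111). In the males, 1 count was worth 0.0469 and 0.0363 CPM, which limits what can be said of female-limited genes at 0.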

Other observations

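Genes that were highest in the upper sheath were also compared between the sexes. Above 10 CPM and over 2 times every library of the other tissues stood 23 genes, with a median log2 difference, male minus female, of -0.12 (range -1.65 to 2.13). Both males lay above both females in 6 and the reverse held in 7, against 21.2% and 22% of all genes tested, and 1 was called, in the female direction (0.291% of all genes). Their summed level was 7139 and 7349 CPM in males and 10640 and 10660 CPM in females. These genes were chosen by the same upper sheath libraries that are compared here. A gene that is low there in either sex can fail the rule. The median, the counts and the sums are thus not independent of that choice. They do not show whether genes highest in the upper sheath differ little between the sexes. A single gene exceeded every other library by 10 times. It stood at 30.4 CPM in male 1, 216 CPM in male 2, 381 CPM in female 1 and 280 CPM in female 2, with a log2 difference of -1.42 that was not called.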
